A study of Mus musculus with 8 samples.

Results

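The circadian clock genes described here are Arntl, Clock, Per1, Per2, Per3, Cry1, Cry2, Nr1d1, Nr1d2 and Dbp, chosen by name through the Ensembl gene identifiers of the GENCODE M21 annotation. All 10 were found among the 54532 deposited genes, and all 10 passed the filter on low counts. Prostate tissues of 8 male NOD/ShiLtJ mice, an inbred strain with spontaneous autoimmune inflammation, were analysed by bulk RNA-seq. Of these, 4 control mice received the PBS vehicle (animal numbers 1, 3, 65 and 69) and 4 mice received 4 mg/kg etanercept, a soluble decoy receptor for the cytokine TNF (animal numbers 17, 19, 50 and 52). Both groups were injected 2 times per week for 5 weeks from an age of 25 weeks and harvested at 30 weeks, and no transgene or deletion was involved. Diabetic and non-diabetic animals were pooled in the study, and the labels do not give the status of a mouse. The time of day at harvest is not given in the sources used here, so each mouse is a single time point of unknown clock time.

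The molecular clock is a feedback loop. The proteins CLOCK and BMAL1, the latter encoded by Arntl, pair on E-box sequences and switch on the Per and Cry genes, whose products then inhibit that pair. The same pair drives Nr1d1 and Nr1d2, which encode the REV-ERB nuclear receptors that repress Arntl through ROR elements, and Dbp, which encodes a transcription factor of the PAR bZIP family that acts on D-boxes. In peripheral tissues of nocturnal rodents, Dbp, the Rev-erb and the Per genes peak around the light phase and its end, while Arntl and Clock peak at the opposite time, and Cry1 peaks later than the Per genes. Tissues taken at one clock phase are therefore known to have related levels of these genes, and a shift of phase moves Arntl against Dbp and the Per genes.

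Promoters of clock genes are known to carry the response elements of the loop, and the matched stretches are shown because the comparisons that follow set Arntl against its targets. RefSeq promoter sequences of GRCm38.p6, from 250 bases before to 50 bases after an annotated start, were found for 9 members in 13 windows, and Per2 had no entry. Both strands were searched for the E-box CACGTG, the D-box TTATGNAA and the pattern TNGGTCA, where N is any base. The last pattern is labelled ROR core here, but it is looser than the known core, which has A or G at N. An E-box was found in the windows of 2 members, Per1 and Cry1, and in 7.15% of all 32851 promoter windows. A D-box was found in 2 members, Per1 and Per3, and in 3.38% of all windows. The pattern TNGGTCA was found in 3 members, Arntl, Per3 and Cry2, and in 11% of all windows. Only Arntl had a match with A or G at N, the exon site TAGGTCA. The matches of Per3 and Cry2 were TGACCAA on the strand of the gene, with T at N on the other strand. A match is only a match of letters in these windows. Capitals mark the matched letters in the following stretches, each 5′ to 3′ on the strand of its gene.
Per1, E-box, chr11:69098771-69098800, plus strand, in an intron of the annotated gene: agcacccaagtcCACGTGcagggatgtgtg
Per1, D-box, chr11:69098914-69098943, plus strand, in an intron of the annotated gene: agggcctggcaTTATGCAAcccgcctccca
Cry1, E-box, chr10:85185097-85185126, minus strand, upstream of the gene: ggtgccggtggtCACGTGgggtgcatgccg
Arntl, ROR core, chr7:113207530-113207559, plus strand, in an exon, 1 of 3 matched sites: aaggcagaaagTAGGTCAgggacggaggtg
Per3, the whole 250 bases before the start, chr4:151044666-151044915, minus strand, with 2 D-boxes and 1 ROR core, the latter read on the other strand: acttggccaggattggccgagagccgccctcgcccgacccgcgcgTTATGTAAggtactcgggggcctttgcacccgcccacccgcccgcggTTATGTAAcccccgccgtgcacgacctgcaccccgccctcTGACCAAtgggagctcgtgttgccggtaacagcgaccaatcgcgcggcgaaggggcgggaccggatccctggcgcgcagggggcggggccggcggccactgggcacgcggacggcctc

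The libraries held between 13760669 and 25178942 counts, with the most in control 1. The prostate marker Pbsn was detected in every mouse, at 1094 to 9172 CPM (library-scaled counts, with TMM factors for composition). Genes of neighbouring tissues were also detected. The summed level of 3 seminal vesicle genes (Svs2, Svs4 and Svs5) was 87847 CPM in etanercept 17, 3563 CPM in control 69 and 602 CPM in etanercept 50, and between 0 and 22.5 CPM in the other mice. The summed level of 5 skeletal muscle genes was highest in control 3, at 1717 CPM, where Myh4 had 353 CPM against at most 1.27 CPM elsewhere. In bulk tissue, fewer cells of a type and less RNA per cell cannot be told apart.

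All 10 clock genes were expressed, with between 38 and 1976 counts per gene and mouse, and gene positions are given on GRCm38. Levels can be compared between genes only per exon length. On that scale Nr1d1 was highest, with 14.1 ± 2.50 CPM per kilobase (SD, n = 8 mice), followed by Dbp with 12.2 ± 4.89 and Nr1d2 with 10.04 ± 1.73. Cry1 had 6.73 ± 1.71, Cry2 had 6.07 ± 1.06, Per1 had 5.46 ± 3.20 and Clock had 3.17 ± 0.657 CPM per kilobase. The lowest levels were those of Per2 with 1.262 ± 0.574, Arntl with 1.13 ± 0.327 and Per3 with 0.911 ± 0.368 CPM per kilobase. The mean ± SD ranges of neighbours in this order overlapped, with the single exception of Clock and Per2. Since Nr1d1 shares 263 exon bases (8.55% of its exon length) with Thra and Dbp shares 539 (18%) with Sphk2, both on the opposite strand, their levels are uncertain if counting ignored strand.

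The positive limb, Arntl and Clock, was lowest in control 1, the mouse in which the Per genes were highest. Arntl, which encodes BMAL1 (chromosome 7, 113207465 to 113314126), had 4.27, 6.93, 9.09 and 10.5 CPM in control 1, 3, 65 and 69 and 7.63, 9.84, 7.29 and 12.2 CPM in etanercept 17, 19, 50 and 52. Control 1 was lowest and etanercept 52 highest, and the groups overlapped. Its log2 fold change with etanercept was 0.27 (standard error, SE, of 0.36, Benjamini-Hochberg adjusted p = 0.948, edgeR quasi-likelihood F test). Arntl gave 0.047 without control 1, 0.091 without etanercept 52 and 0.45 without control 69. Clock (chromosome 5, 76209868 to 76304792), the partner of BMAL1, had 30.9, 42.5, 38.2 and 39.6 CPM in the control mice and 54.6, 39.0, 44.7 and 58.3 CPM in the etanercept-treated mice, in the same order. Etanercept 52 and 17 were highest, while etanercept 19 lay within the range of the control mice. Its log2 fold change was 0.38 (SE 0.18), with a 95% interval from −0.030 to 0.79, an unadjusted p of 0.0657 and an adjusted p of 0.759 in the same edgeR test. With the trend over gene length removed, the log2 fold change of Clock was 0.23 (unadjusted p = 0.232).

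The Per genes, repressors of CLOCK and BMAL1, were the most variable members together with Dbp. Per1 (chromosome 11, 69095217 to 69109960), whose promoter stretch with an E-box and a D-box is printed above, had 71.4, 33.3, 28.7 and 20.8 CPM in control 1, 3, 65 and 69 and 11.4, 19.7, 32.2 and 28.1 CPM in etanercept 17, 19, 50 and 52. Control 1 stood above all other mice and etanercept 17 below them, a span of 6.26-fold. The log2 fold change of Per1 was −0.76 (SE 0.42, Benjamini-Hochberg adjusted p = 0.798, edgeR quasi-likelihood F test), and it was −0.29 without control 1. Per2 (chromosome 1, 91415982 to 91459324) had 13.0, 10.6, 5.28 and 6.83 CPM in the control mice and 2.62, 6.36, 9.33 and 5.13 CPM in the etanercept-treated mice, again with control 1 highest and etanercept 17 lowest. Its log2 fold change was −0.61 (SE 0.45, adjusted p = 0.861 in the edgeR test), and it was −0.36 without etanercept 17, −0.39 without control 1 and −0.92 without etanercept 50. Per3 (chromosome 4, 151003652 to 151044665) had 13.8, 12.5, 9.30 and 2.20 CPM in the control mice and 8.39, 7.22, 9.27 and 7.35 CPM in the etanercept-treated mice. Here control 69, and not etanercept 17, was lowest, and the 4 etanercept-treated mice lay inside the range of the control group. The log2 fold change of Per3 was −0.23 (SE 0.49, adjusted p = 0.980 in the edgeR test), and it was −0.0040 without control 1, −0.063 without control 3 and −0.56 without control 69.

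The Cry genes, which encode the other repressors of the loop, varied less. Cry1 (chromosome 10, 85131700 to 85185064) had 17.1, 21.3, 15.8 and 31.7 CPM in control 1, 3, 65 and 69 and 19.7, 23.6, 30.1 and 20.7 CPM in etanercept 17, 19, 50 and 52. Control 69, in which Per3 and Dbp were lowest, was the mouse with most Cry1. Cry2 (chromosome 2, 92403646 to 92434043) had 38.7, 36.9, 32.0 and 41.6 CPM in the control mice and 37.7, 47.2, 45.7 and 27.0 CPM in the etanercept-treated mice, which held both the highest and the lowest value. Log2 fold changes were 0.13 for Cry1 (SE 0.26) and 0.079 for Cry2 (SE 0.20), with adjusted p of 0.976 and 0.987 in the edgeR test, and both signs turned when single mice were left out.

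Of the REV-ERB genes, the repressors of Arntl, Nr1d1 (chromosome 11, 98767932 to 98775333) had 35.9, 32.1, 55.0 and 47.7 CPM in control 1, 3, 65 and 69 and 38.4, 50.7, 43.8 and 42.5 CPM in etanercept 17, 19, 50 and 52. Its highest and lowest values, both from control mice, differed by 1.71-fold. Nr1d2 (chromosome 14, 18204054 to 18239127) had 62.8, 53.7, 48.7 and 39.5 CPM in the control mice and 45.4, 65.6, 63.3 and 55.4 CPM in the etanercept-treated mice, a span of 1.66-fold, with control 69 lowest. The log2 fold change of Nr1d1 was 0.039 (SE 0.20) and that of Nr1d2 0.16 (SE 0.19), with adjusted p of 0.995 and 0.933 in the edgeR test, and the value of Nr1d1 turned negative under library-size scaling while that of Nr1d2 was 0.061 without control 69, 0.096 without etanercept 19 and 0.26 without control 1 or etanercept 17. Dbp (chromosome 7, 45705088 to 45710203), the output gene of the set, had 43.6, 42.2, 23.7 and 13.2 CPM in the control mice and 28.6, 33.9, 59.1 and 47.9 CPM in the etanercept-treated mice. Control 69 was lowest and etanercept 50 highest, a span of 4.48-fold, and the groups overlapped. The log2 fold change of Dbp was 0.46 (SE 0.38, 95% interval −0.39 to 1.32, adjusted p = 0.877 in the edgeR test), and it was 0.21 without control 69 and 0.26 without etanercept 50.

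**Figure D1:**
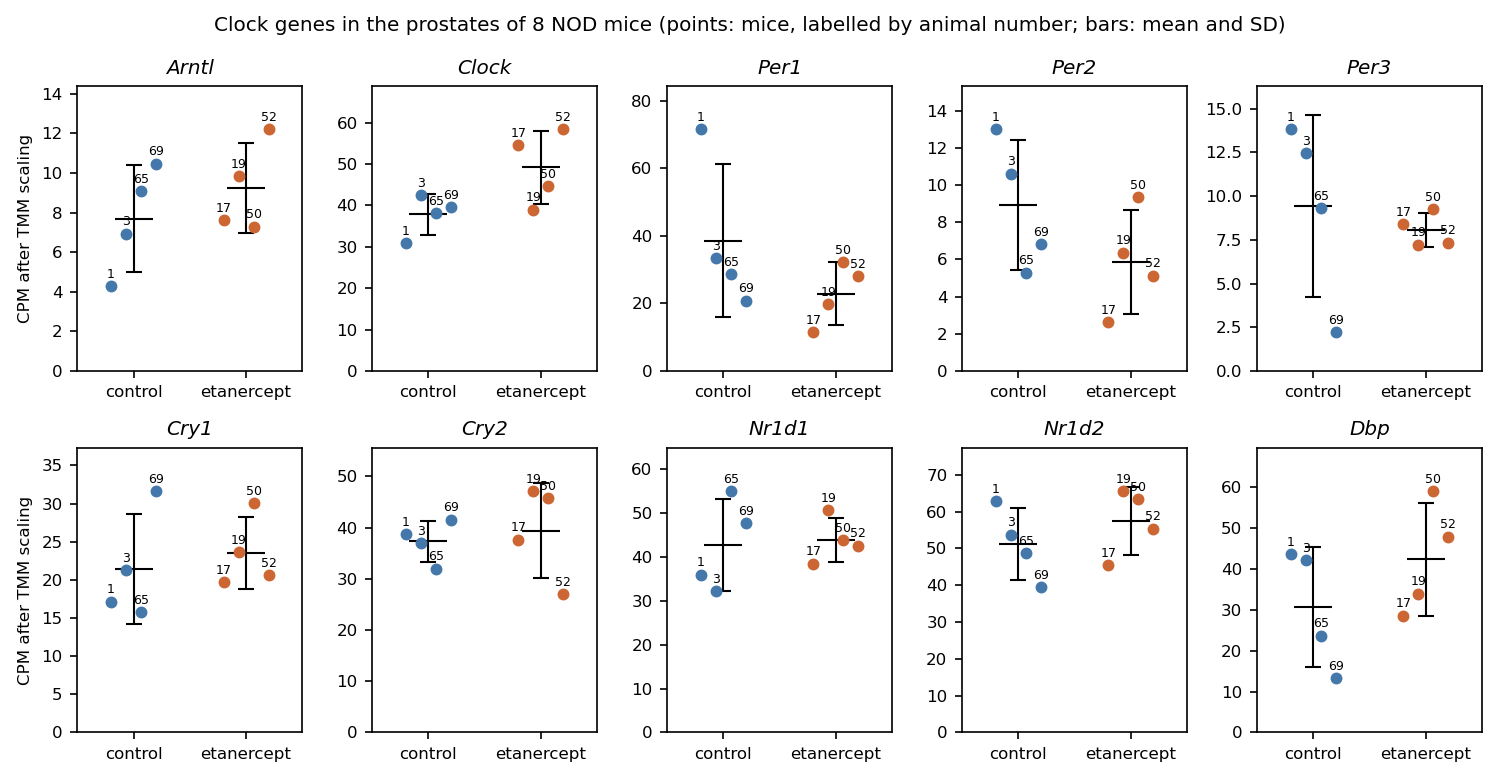
Expression of the 10 clock genes in CPM after TMM scaling, with each point a mouse labelled by its animal number and bars giving the mean and SD of 4 mice per group. Control and etanercept-treated mice overlap in every panel, and control 1 is highest for Per1, Per2 and Per3 and lowest for Arntl and Clock.

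With a threshold of 0.05 on the adjusted p of edgeR's quasi-likelihood F test over 15472 genes, 0 of the 10 clock genes were called, where 0% of all tested genes were called. With the same threshold on the unadjusted p, 0 of the 10 passed, against 6.62% of all tested genes (2.99% higher and 3.63% lower with etanercept). DESeq2's Wald test also called 0 of the 10, against 0.113% of all genes, and 0 passed on its unadjusted p, against 5.84%. The CPM values of the groups separated without overlap in 0 of the 10 genes, against 2.53% of tested genes for lower and 2.41% for higher values with etanercept. Fitted log2 fold changes were below 0 for Per1, Per2 and Per3, 3 of the 10, and the median of the 10 was 0.11, beside −0.0099 over all tested genes. The 95% intervals of the log2 fold change were widest for Per3 (−1.32 to 0.86), Per2 (−1.62 to 0.41) and Per1 (−1.71 to 0.19) and narrowest for Clock.

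**Figure D2:**
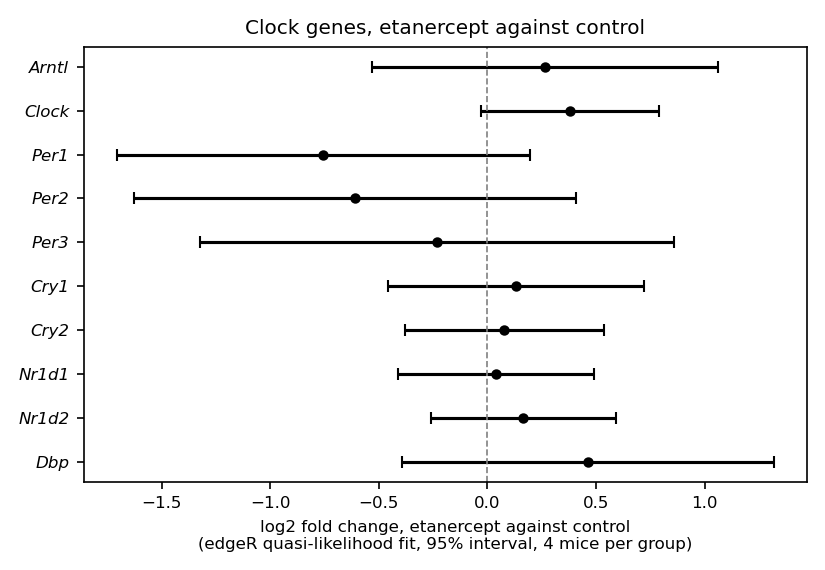
Log2 fold changes of the clock genes with etanercept against control, with 95% intervals from edgeR's quasi-likelihood fit (4 mice per group). All 10 intervals include 0, and the lowest estimates are those of Per1 at −0.76 and Per2 at −0.61.

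The spread between mice was uneven over the loop. The SD of log2(CPM + 1) over the 8 mice was 0.73 for Per1, 0.67 for Per3, 0.66 for Dbp and 0.62 for Per2, which stood at the percentiles 81.3, 77.0, 75.8 and 70.7 of all tested genes. Arntl had an SD of 0.41, at percentile 42.9. For Nr1d2, Nr1d1, Cry2, Clock and Cry1 the SD lay between 0.25 and 0.34, at percentiles 16.2 to 32.1. The median SD of the 10 genes was 0.38, beside 0.45 over all tested genes.

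Agreement of clock phase between mice was described with an index that was not tested, since its genes are the members themselves. The index is the mean of log2(CPM + 1) over Dbp, Nr1d1, Nr1d2, Per1, Per2 and Per3, the light-phase arm, minus that over Arntl and Clock, the dark-phase arm, with each gene centred on its mean over the 8 mice. It was 1.17, 0.34, −0.042 and −0.68 in control 1, 3, 65 and 69 and −0.60, −0.076, 0.36 and −0.46 in etanercept 17, 19, 50 and 52. The highest and the lowest value were both those of control mice, and the 4 etanercept-treated mice lay between them. Control mice had a mean of 0.20 ± 0.77 and the treated mice one of −0.20 ± 0.43 (SD, n = 4 per group), a difference of −0.39 that is smaller than the SD of either group and −0.068 without control 1. The mice with animal numbers below 20 had a mean of 0.21 ± 0.75 and those above 49 had −0.21 ± 0.46 (SD, n = 4 each).

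At the ends of this order, control 1 and control 69 differed in most members. Control 1 had 5 of the 6 light-phase genes above their median over the mice and both dark-phase genes below it. In control 69 the same index came mainly from Per3 and Dbp, at −1.49 and −1.28 log2 units from their means, while Per2 was at 0.0086 and Nr1d1 at 0.16. Etanercept 17, with a similar index, had Per1 at −1.18 and Per2 at −1.10 and Per3 at 0.059. The similar index of these mice thus rested on different Per genes. Etanercept 50 was the mouse with all 6 light-phase genes above their medians, with Dbp farthest from its mean, at 0.80 log2 units.

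Libraries at these ends also differed in other respects. Control 1 was the most deeply sequenced library, with the lowest summed level of 5 smooth muscle genes (3038 CPM, against 4976 to 11060 CPM in the other mice) and the highest of 3 basal epithelial genes (233 CPM, against 62.4 to 170 CPM). Control 69 and etanercept 17 were the libraries with most seminal vesicle RNA. The 8 glucocorticoid-induced genes did not move as one. Mt1 stood at 2619 CPM for control 1 and 2525 CPM for etanercept 17, against 898 to 1458 CPM in the other mice, and Sgk1 was also highest in these mice. Fkbp5 was lowest in the same mice, at 71.1 and 68.8 CPM, and highest in control 69, at 619 CPM. Klf9 was lowest in control 1, and Tsc22d3, Zbtb16, Ddit4 and Mt2 were lowest in etanercept 17. The part of these differences in the clock values was not tested.

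**Figure D3:**
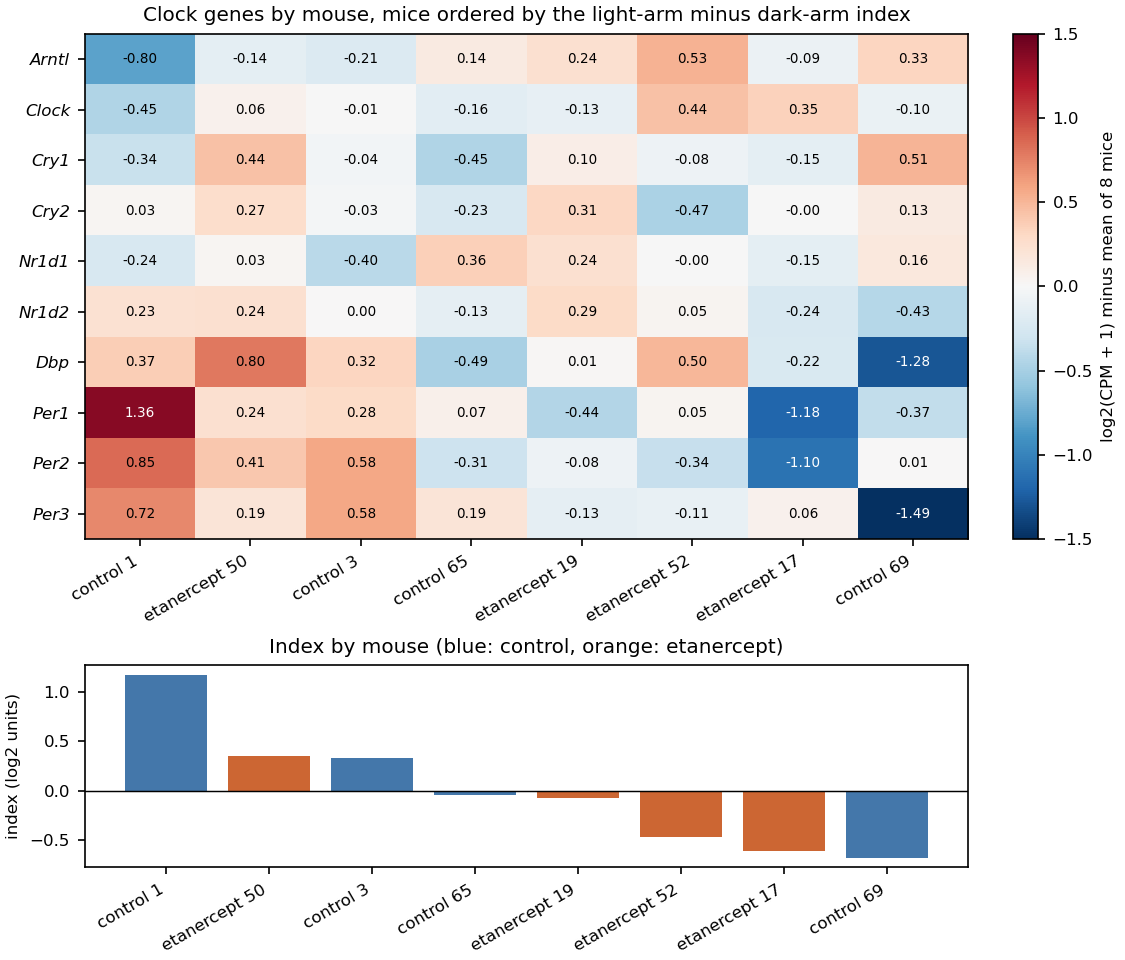
The upper panel gives log2(CPM + 1) of each clock gene minus its mean over 8 mice, with mice ordered by the index, and the lower panel gives the index in log2 units (blue for control, orange for etanercept). Control mice stand at both ends, at 1.17 and −0.68.

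The ratio of Dbp to Arntl within a mouse hardly depends on the scaling of libraries, and it spread widely. On the log2(CPM + 1) scale, where only differences between mice can be read, Dbp exceeded Arntl by 3.08, 2.45, 1.29 and 0.31 in control 1, 3, 65 and 69 and by 1.78, 1.69, 2.86 and 1.89 in etanercept 17, 19, 50 and 52. Control mice had a mean of 1.78 ± 1.23 and the treated mice one of 2.05 ± 0.54 (SD, n = 4 per group), a difference of 0.27 that was within the spread of either group and turned to −0.22 without control 69. The same value for Per1 against Arntl lay between 0.52, in etanercept 17, and 3.78, in control 1. Nr1d1 against Arntl had the narrowest range of these, between 1.72 and 2.81, and control 1 was highest in all 3.

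Pearson's r between mice over the 10 centred members described how alike their clock patterns were; genes are not independent replicates, and centring makes the mean of these values negative. Over all 28 pairs of mice it was between −0.78, for control 65 and etanercept 50, and 0.77, for control 1 and control 3, with a mean of −0.13. The mean was −0.048 over the 12 pairs within a treatment group and −0.20 over the 16 pairs between groups. Etanercept 50 resembled the control mice 3 and 1 (r = 0.51 and 0.42) more than any etanercept-treated mouse, for which r was between −0.26 and −0.11, while r was −0.41 and −0.78 with the other control mice. Control 69 resembled no other control mouse, with r between −0.65 and −0.019, and its highest r was with etanercept 19, at 0.38.

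Whether members of the same arm varied together from mouse to mouse was asked over all 45 pairs of members, with r over the 8 mice and exact two-sided permutation tests. Genes of the light-phase arm peak around the light phase and its end, so not all at the same hour. After Benjamini-Hochberg adjustment over the 45 pairs 0 passed the threshold of 0.05, and 3 did so before it. Per1 and Per2 had the highest r, 0.86 (exact permutation p = 0.00883, adjusted p = 0.219, Spearman's rho 0.81 with exact permutation p = 0.0218 and adjusted p = 0.327). Without control 1 and etanercept 17, the mice farthest from the median of Per1, r was 0.45, so the relation rests largely on these. Nr1d2 and Dbp had an r of 0.83 (exact permutation p = 0.00972, adjusted p = 0.219, rho 0.71 with exact permutation p = 0.0576 and adjusted p = 0.623), which was 0.85 without the mice farthest from the median of Nr1d2. Leaving out single mice moved this r between 0.64, without control 69, and 0.93, without etanercept 19. It was 0.54 without control 69 and etanercept 17. Per3 and Dbp had an r of 0.75 (exact permutation p = 0.0446, adjusted p = 0.491, rho 0.36 with exact permutation p = 0.389 and adjusted p = 0.727), and it was 0.085 without the mice farthest from the median of Per3. After centring within the treatment groups, the values of r of these 3 pairs were 0.82, 0.80 and 0.84. With that centring 6 of the 45 pairs passed 0.05 before adjustment and 0 after it. Other pairs moved more, Per1 with Dbp from 0.44 to 0.84 and Arntl with Dbp from −0.36 to −0.61. The groups of 4 are too small for an r of their own.

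Signs of r mostly followed the arms, but pairs share genes and mice and are not independent. The same share among other genes was not computed. Of the 16 pairs within an arm, 11 had a positive r, and the median over the 16 was 0.47. Positive values also leaned on single mice. For Per3 and Nr1d2, r was 0.64 (rho 0.17), with 0.086 without control 69 and 0.76 without etanercept 19. It was −0.24 without control 1 and control 69. The 5 negative pairs were those of Nr1d1 with the other light-phase genes, at −0.13 with Nr1d2 and between −0.50 and −0.31 with Per3, Dbp, Per2 and Per1. Of these, Nr1d1 and Nr1d2 had an r of 0.057 without control 69 and a rho of 0.024, Nr1d1 and Per1 had an r between −0.63, without etanercept 17, and −0.029, without control 1, and Nr1d1 and Per2 one between −0.78, without etanercept 17, and −0.15, without control 3. Of the 12 pairs between the arms, 10 had a negative r, with a median of −0.36, and the exceptions were Arntl with Nr1d1 (r = 0.61, exact permutation p = 0.108, adjusted p = 0.491) and Clock with Dbp (r = 0.18, and −0.018 without etanercept 52). Arntl had an r of −0.61 with Per1, −0.57 with Per2, −0.66 with Per3 and −0.36 with both Dbp and Nr1d2, and the smallest exact permutation p of these was 0.0990 (adjusted p = 0.491). Single mice moved these values in both directions. For Arntl and Per1, r was −0.035 without control 1 and −0.88 without etanercept 17, and for Arntl and Per2 it was −0.25 and −0.92 without the same mice. For Arntl and Nr1d2 it was −0.13 without control 1 and −0.54 without etanercept 19, and for Arntl and Dbp −0.18 without control 69 and −0.63 without etanercept 52. For Per3, rho was −0.86 (exact permutation p = 0.0107, adjusted p = 0.327), and r was −0.78 without control 1 and etanercept 52, the mice farthest from the median of Arntl. Arntl and Clock had an r of 0.57 that turned to −0.60 without the same mice. The first principal component of the standardised members held 43.8% of their variance and loaded positively on Dbp, Nr1d2 and the Per genes and negatively on Arntl, Clock, Cry1 and Nr1d1.

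**Figure D4:**
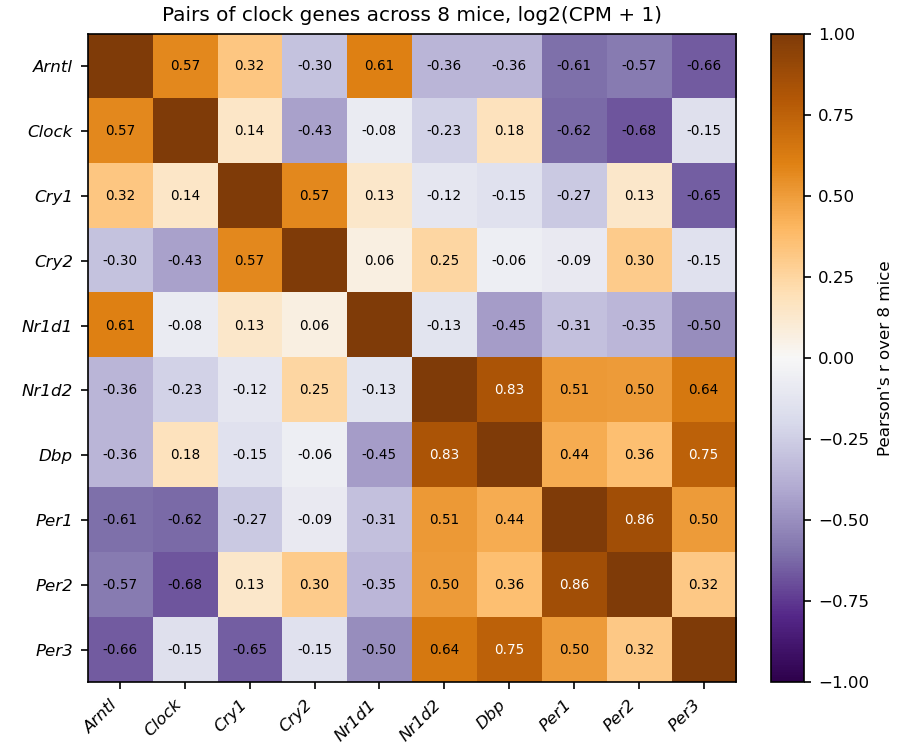
Pearson's r over 8 mice between the 10 clock genes on log2(CPM + 1), with the diagonal unlabelled. The block of Nr1d2, Dbp, Per1, Per2 and Per3 is positive throughout, with values up to 0.86, while Nr1d1 is negative with each of them. After adjustment 0 of the 45 pairs passed 0.05. Some values in the block rest on few mice: Per3 with Dbp, at 0.75, had 0.085 without control 1 and control 69.

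Of 39 further genes of the clock pathway, 38 passed the filter, with Arntl2 (at most 11 counts) left out. With the threshold of 0.05 on the adjusted p, 0 were called in edgeR and 0 in DESeq2. On the unadjusted p, 2 of the 38 passed in edgeR, against 6.62% of all tested genes, and 1 passed in DESeq2, against 5.84%. Rora, which encodes a nuclear receptor that activates Arntl, was among those of edgeR. Rora had 38.1, 30.3, 35.6 and 29.4 CPM in the control mice and 62.6, 43.2, 42.5 and 35.6 CPM in the etanercept-treated mice, and the groups overlapped slightly. Its log2 fold change was 0.46 (SE 0.20, unadjusted p = 0.0474, adjusted p = 0.743 in the edgeR test) and 0.28 without etanercept 17 (unadjusted p = 0.144). Rora did not pass in DESeq2 (unadjusted p = 0.0670, Wald test), nor with library size alone (unadjusted p = 0.115, edgeR test).

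The values of the groups overlapped for each of the regulators that follow. Npas2, which can replace CLOCK, had 3.797, 6.401, 9.65 and 11.6 CPM in the control mice and 13.7, 14.1, 7.05 and 8.32 CPM in the etanercept-treated mice, with control 1 again lowest. Over the 8 mice its r was 0.71 with Arntl (rho 0.64) and −0.55 with Dbp (rho −0.60). Among the repressors, Ciart had 4.06 ± 1.13 CPM in control mice and 3.43 ± 2.14 CPM after etanercept, Bhlhe40 had 30.0 ± 14.0 and 28.5 ± 2.75, Bhlhe41 had 21.3 ± 6.98 and 17.996 ± 2.49, and Nfil3, which opposes Dbp on D-boxes, had 31.9 ± 22.8 and 30.0 ± 18.1 CPM (SD, n = 4 each). Bhlhe40 and Bhlhe41 were both highest in control 3, at 50.1 and 30.6 CPM. Nfil3 was highest in control 69, which had the least Dbp, and next highest in etanercept 50, which had the most (64.5 and 54.5 CPM), and over the 8 mice its r with Dbp was −0.24 (rho −0.19). Of the PAR bZIP relatives of Dbp, Tef had 116 ± 13.1 and 118 ± 25.4 CPM and Hlf had 11.5 ± 5.36 and 13.5 ± 8.46 CPM (SD, n = 4 each). Hlf was lowest in control 69, at 3.94 CPM, as Dbp was, but highest in etanercept 17, at 24.8 CPM.

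Genes with a pattern most like the members were sought among 11300 tested genes with a mean of at least 5 CPM, by r over the 8 mice, and as extremes of a ranking they were not tested. Most like Arntl were Sel1l3 (r = 0.97, rho 0.93), Fastkd2 (r = 0.97), Larp1b (r = 0.96), Aen (r = 0.96) and Otud7b (r = 0.95). Most opposite to Arntl were Ndufc1 (r = −0.99, rho −0.98) and Ndufa11 (r = −0.98), both encoding subunits of respiratory complex I, followed by Rpl31-ps8, Gm15920 and Gm5617 at −0.94 to −0.92. Most like Dbp were Fam216a (r = 0.98, rho 0.95), Smurf1, Sema3b, Caap1 and Klhl28, the last at r = 0.94, and most opposite were Slc39a13 (r = −0.96, rho −0.98), Rexo4, Tmem98, Slc35a4 and Taz, the last at r = −0.90. The rank of Npas2 by r with Arntl was 631.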

How the data were processed

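Frozen prostates of 8 NOD mice were sequenced by the authors as poly(A)-selected libraries. The authors mapped reads with STAR 2.6.1d on mm10, and the submitters' processing notes also name fastp, featureCounts 1.5.0-p3 and DESeq2 1.26.0. They deposited whole-number counts per gene and mouse, without normalization. The annotation release and the strand setting used for counting are not given in the sources used here. All 8 columns were mapped to a mouse through the animal number in its title.

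Genes were named with GENCODE M21 (GRCm38), in which 37 of the 54532 identifiers, with 0.00429% of the counts, were absent. The main test was the quasi-likelihood F test of edgeR 4.0.16 in R 4.3.3, after filterByExpr (minimum count 10) and TMM scaling, without covariates. A gene was called when its p, adjusted by Benjamini-Hochberg over 15472 genes, did not exceed 0.05. DESeq2 1.42.0 was the alternative. Pairs of members were tested over the 8 mice on log2(CPM + 1) with all pairings enumerated (scipy 1.17.1), adjusted over 45 pairs. The routines were tested on simulated data. Samples of a group are separate animals.

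The named genes are the members, those of a wider clock list whose unadjusted p did not exceed 0.05, further regulators fixed by name and the 5 genes most like and most opposite to Arntl and Dbp. Members and lists were chosen with earlier results of these data known. Alternatives were other scalings, filters and pseudocounts, a robust edgeR fit, a lowess correction for gene length (span 0.3), the animal number range as a block and leaving out each mouse. Results for some of these genes are not reported here.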

Additional observations from a re-analysis of the deposited data

Results flagged for a closer look

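Among 96 sets of 4 mice (in each of the 2 groups, the 10 members, 36 of the 38 further clock genes, the index and the ratio of Dbp to Arntl), 1 had a mouse whose gap to the nearest other mouse exceeded Dixon's critical share of the group's range, and chance flags about 1 in 20 such sets. Cdkn1a, a cell cycle inhibitor gene among the rhythmic outputs, had 134.6 CPM in control 69, with a gap of 0.856 of the range to the other control mice, at 33.3 to 47.9 CPM. Control 69 was also the mouse with the lowest Dbp and Per3 and the second highest seminal vesicle RNA, and the part of that RNA in this value was not tested.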

How the results depend on the processing

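No paired analysis was possible because control and treated animals carry different numbers. Under every alternative tried, 0 of the 10 members were called, also with control 69 and etanercept 17 both left out, an alternative chosen after seeing the data. The wider list likewise had 0 called genes. Its 2 genes that passed 0.05 on the unadjusted p became 0 to 4 when single mice were left out. The 4 came without control 69, where 1826 of 15975 genes passed and Per1 (lower) was the member among them. Clock (higher) passed without etanercept 19, where 828 of 15963 genes did. Without both control 69 and etanercept 17 the list had 7, and 2567 of 15558 genes passed. The sign of the log2 fold change held under all alternatives for Arntl, Clock, Per1, Per2, Per3, Nr1d2 and Dbp. Removing the trend over gene length gave 0.16 for Arntl, 0.23 for Clock, −0.35 for Per3 and 0.099 for Nr1d2. Library size alone gave −0.36 for Per3, 0.067 for Nr1d2 and 0.072 for Cry1, and the animal number range as a block gave −0.11 for Per3. With control 69 and etanercept 17 both left out, Arntl had 0.54, Per3 −0.58, Cry1 0.46 and Cry2 0.16. Nr1d1 lay between −0.032 and 0.16 over the alternatives that keep all mice or leave out both of these. Leaving out single mice gave −0.0089 to 0.38 for Cry1, −0.019 to 0.21 for Cry2 and −0.077 to 0.17 for Nr1d1. The sign turned to −0.0089 and −0.0082 for Cry1 without control 65 and without etanercept 50, and for Cry2 it became −0.0053 with library size alone, −0.0048 without the length trend, −0.0057 without control 65, −0.019 without etanercept 19 and −4.244e-05 without etanercept 50. For Nr1d1 it became −0.032 with library size alone, −0.050 without control 1, −0.077 without control 3 and −0.037 without etanercept 19. The cause was not tested. Among the 45 pairs of members, 0 passed the adjusted threshold in any alternative, and with library size alone 38 kept their sign. Over the 8 fits without 1 mouse, the group difference of the index lay between −0.68 and −0.068, and that of the log2 ratio of Dbp to Arntl between −0.22 and 0.71. The ratio's difference was −0.13 with control 69 and etanercept 17 both left out, and 0.40 with the trend over gene length removed. Counts per member and mouse were between 38, for Per3 in control 69, and 1976, for Per1 in control 1, with 4 mice per group at a single time point each.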
